A study of Mus musculus with 20 samples.

Results

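The genes examined here release fatty acids from stored fat or coat and enlarge the lipid droplet, and 10 of them were measured in the epididymal fat pads of 20 male mice: Pnpla2, Lipe, Mgll, Abhd5, Plin1, Plin4, G0s2, Cidec, Aqp7 and Pde3b. They were chosen by name through the gene symbols of the array's annotation, and each of the 10 was represented by 1 probe set, out of 22206 probe sets and 19505 named genes. Pnpla2, Lipe, Plin1 and Pde3b lie on chromosome 7, Mgll and Cidec on chromosome 6, G0s2 on chromosome 1, Aqp7 on chromosome 4, Abhd5 on chromosome 9 and Plin4 on chromosome 17. The wt group held 10 mice of genotype TNF-αFlox/FLox, LyzMcre-/-, and the cre group held 10 littermates of genotype TNF-αFlox/FLox, LyzMcre+/-, all on C57BL/6. Both groups therefore carried the floxed Tnf alleles, and the groups differed in a Cre driven by the LyzM promoter, which is active in macrophages and other myeloid cells and not in fat cells. From an age of 10 weeks all mice received 18 weeks of a purified diet rich in fat (40% of calories) in place of chow, and they were sampled at 28 weeks. Each of 2 batches, so named in the sample titles, held 5 wt and 5 cre mice. Each array carried the RNA of 1 mouse, and values are log2 signals, so a difference of 1 is a 2-fold difference.

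A fat cell stores triglyceride in a single large droplet. Adipose triglyceride lipase (Pnpla2) takes the first fatty acid off, hormone-sensitive lipase (Lipe) the next and monoglyceride lipase (Mgll) the last, and the glycerol leaves through the channel Aqp7. Abhd5, also called CGI-58, activates Pnpla2, and perilipin 1 (Plin1) holds Abhd5 back at the droplet surface until protein kinase A phosphorylates it. G0s2 binds and inhibits Pnpla2. Plin4 is another droplet coat protein, Cidec (Fsp27) promotes the growth of large droplets, and Pde3b breaks down cyclic AMP and so carries the anti-lipolytic signal of insulin. Tumour necrosis factor, the product of Tnf, is known to stimulate lipolysis in cultured fat cells and to lower Plin1, Cidec and G0s2 there.

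The upstream sequences of 4 of the genes are shown because they stand for the different patterns described further on: the rise of Pnpla2 with the fat-cell gene Adipoq passed the test with and without a pair of outlying mice, that of Cidec passed with them and missed it without them, Abhd5 had the flattest slope on it, and G0s2 had the largest difference between the genotypes. Each is the 250 bases before the gene's start in RefSeq's GRCm38.p6 table (the mm10 assembly), read in the direction of transcription, with motif matches on either strand in capitals. The windows lie at chr7:141454938-141455187 on the plus strand for Pnpla2, chr6:113435761-113436010 on the minus strand for Cidec, chr9:122351366-122351615 on the plus strand for Abhd5 and chr1:193273189-193273438 on the minus strand for G0s2.
Pnpla2: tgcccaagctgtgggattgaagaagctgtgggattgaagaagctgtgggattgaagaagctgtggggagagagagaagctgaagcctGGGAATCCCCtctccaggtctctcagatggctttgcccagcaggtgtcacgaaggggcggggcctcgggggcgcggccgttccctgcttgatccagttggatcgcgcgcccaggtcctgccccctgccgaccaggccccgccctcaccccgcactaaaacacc
Cidec: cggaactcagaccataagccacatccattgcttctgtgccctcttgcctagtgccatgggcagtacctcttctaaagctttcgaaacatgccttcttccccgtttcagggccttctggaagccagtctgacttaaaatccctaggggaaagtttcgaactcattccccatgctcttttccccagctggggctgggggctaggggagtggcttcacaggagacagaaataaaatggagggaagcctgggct
Abhd5: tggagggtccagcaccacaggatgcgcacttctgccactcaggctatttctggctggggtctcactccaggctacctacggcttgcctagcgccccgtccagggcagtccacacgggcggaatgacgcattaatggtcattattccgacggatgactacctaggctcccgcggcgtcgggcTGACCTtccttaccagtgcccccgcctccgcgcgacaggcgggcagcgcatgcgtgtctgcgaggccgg
G0s2: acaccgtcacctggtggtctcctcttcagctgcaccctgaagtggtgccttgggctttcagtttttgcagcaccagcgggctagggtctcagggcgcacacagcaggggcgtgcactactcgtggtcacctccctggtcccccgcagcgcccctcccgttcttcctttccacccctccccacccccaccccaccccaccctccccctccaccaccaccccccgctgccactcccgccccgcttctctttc

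None of the searched motifs matched in the windows of Cidec and G0s2 shown here. The C/EBP-like motif TTGCNNAA was found before another start of Cidec, at -198 to -191, which lies within the annotated span of that gene. It was also found in the window listed for Plin1, at -187 to -180 and, within the annotated span of that gene, at -58 to -51; it occurred in 9.56% of all 32851 windows of the table. The capitals in the Abhd5 window, at -69 to -64, are a match on the minus strand to AGGTCA, a site of nuclear receptors that was found in 14% of all windows. It was also in both windows listed for Aqp7, at bases within the annotated span of that gene. The capitals in the Pnpla2 window, at -163 to -154, match the NF-kappaB consensus, which was also found upstream of Plin4 and in 7.25% of all windows. The direct repeat of AGGTCA with 1 base between the copies and the TATA box TATAAA occurred in none of the 13 windows listed for 9 of the 10 genes, and in 0.0335% and 12.4% of all windows. The Cidec window shown held 4 CG dinucleotides and 52.8% G and C, against 11 and 67.2% for G0s2, 12 and 63.2% for Pnpla2, 22 and 64.8% for Abhd5, and medians of 6 and 52.4% over all windows. The matches are descriptions of sequence; binding was not measured here.

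The libraries were checked before the genes were compared. Array medians lay between 6.49 and 6.58 and the highest signals between 19.81 and 19.93. Tnf was between 5.78 and 7.80 in the wt mice and between 3.91 and 5.34 in the cre mice, without overlap, and its difference (cre minus wt) was -1.99 (SE 0.24; limma's adjusted p = 0.000822). Whether its probe set lies within the floxed part was not tested. The fat-cell markers, 10 of 11 measured and none of them a member, averaged 13.3 to 15.6 in wt and 14.7 to 15.8 in cre, whereas testis and epididymis markers (9 of 11 measured) averaged at most 4.92 in any mouse. Markers of another tissue stood at least 1 log2 unit above the rest of the group in 6 mice: wt replicates 4 (liver and exocrine pancreas), 6 (seminal vesicle and prostate) and 7 (skeletal muscle), and cre replicates 2 (bladder epithelium and brown fat), 3 (seminal vesicle) and 9 (erythroid precursors). The 7 seminal vesicle markers averaged 16.8 in wt replicate 6 and at most 5.66 in the other wt mice. This rule finds only a mouse that stands alone in its group and misses markers shared by several mice. Liver markers averaged 12.2 and 12.0 in the highest cre mice, with medians of 9.48 in cre and 7.59 in wt. No cre mouse was counted for liver.

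A pair of wt mice, replicates 5 and 6, stood apart in the members themselves. Both lay below each of the other 18 mice for 9 of the 10 genes; for Abhd5, replicate 6 lay below all 18 and replicate 5 below 17. Against the median of the other 8 wt mice, Plin4 was 5.96-fold lower in replicate 5 and 10.6-fold lower in replicate 6. Plin1 was 3.78-fold and 8.19-fold lower, and Abhd5 1.25-fold and 1.38-fold lower. Adipoq, the fat-cell hormone adiponectin, was 2.99-fold and 3.41-fold lower in them, and their fat-cell marker means of 13.8 and 13.3 were the lowest of all mice. The macrophage markers (14 of 15 measured) averaged 13.6 in wt replicate 5, the highest value among the 20 mice. In whole tissue, fewer fat cells, less RNA per fat cell and dilution by another tissue cannot be told apart. The pair was unlike in other markers. Among the wt mice, the fibroblast and progenitor marker mean was highest in replicate 5 (15.3) and lowest in replicate 6 (13.7). Replicate 6 was also the mouse with the high seminal vesicle markers. The genotype differences of the members over both batches are therefore given with and without this pair, a choice made with the values of these mice known, while differences within a single batch include it.

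**Figure D1:**
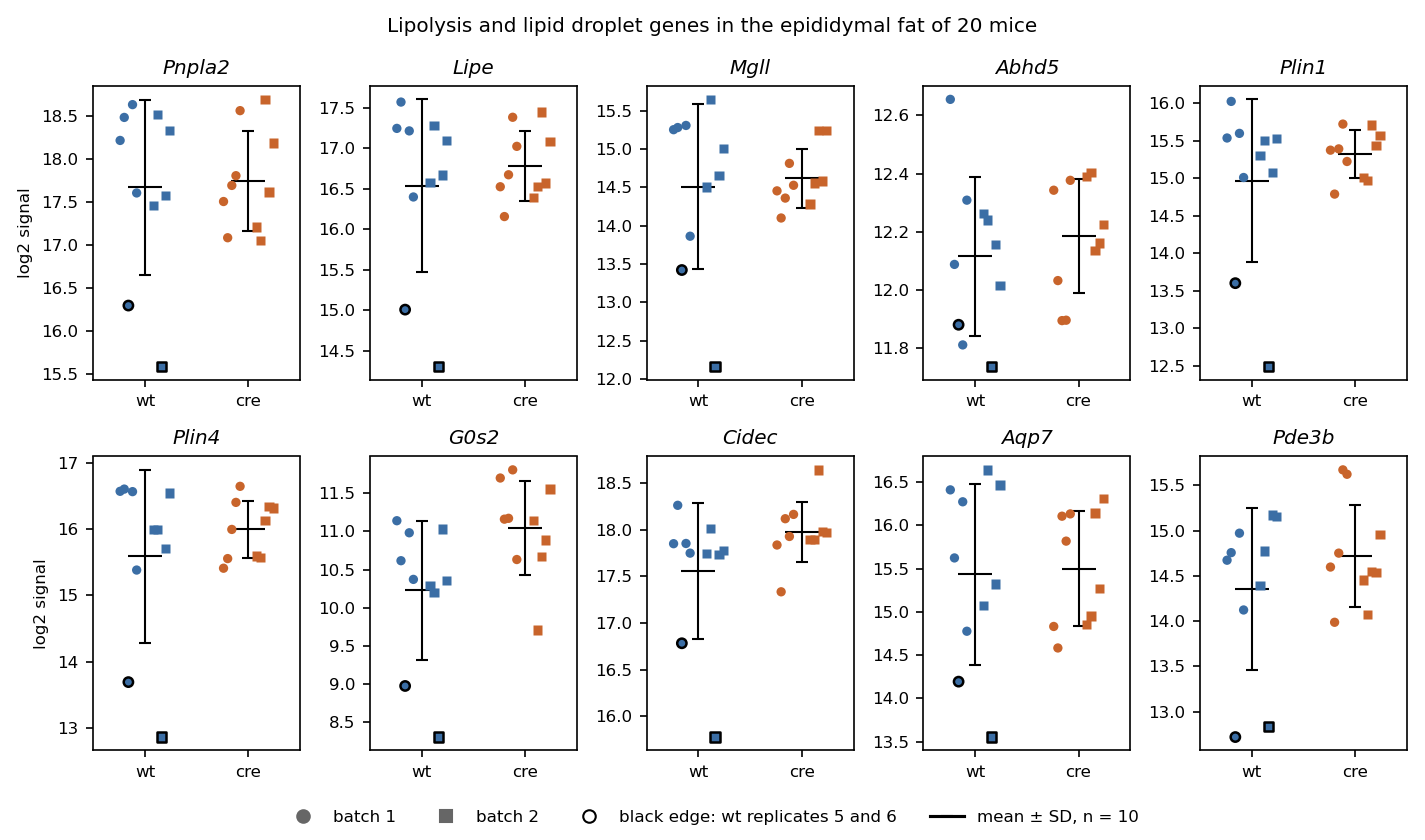
Log2 signal of each gene in each mouse (vertical axis; each panel has its own scale) in the wt and cre groups, with circles for batch 1, squares for batch 2, black edges for wt replicates 5 and 6, and bars for mean ± SD of 10 mice. Replicates 5 and 6 lie below all other mice except in the Abhd5 panel, and the other 8 wt mice overlap the cre mice in every panel.

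Among the 3 lipases, Pnpla2 ran from 15.59 through a median of 17.91 to 18.63 in wt and from 17.05 through 17.65 to 18.69 in cre. The cre median was the lower of the 2, while the wt range reached further down through replicates 5 and 6. The group means of Pnpla2 were 17.67 ± 1.02 (wt) and 17.74 ± 0.58 (cre), each with its SD over 10 mice. Lipe ran from 14.31 through 16.88 to 17.57 in wt and from 16.16 through 16.62 to 17.45 in cre. Mgll ran from 12.16 through 14.83 to 15.65 in wt and from 14.10 through 14.54 to 15.24 in cre. For each of the 3 lipases, 2 cre mice lay above the median of the 8 wt mice other than replicates 5 and 6. Leaving out that low pair raises this median. Above the mean of all 10 wt mice lay 5 cre mice for Pnpla2, 6 for Lipe and 6 for Mgll.

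Abhd5, the activator of Pnpla2, had the narrowest range of the 10 genes, from 11.74 through 12.12 to 12.66 in wt and from 11.89 through 12.19 to 12.40 in cre. Its SD among mice of 1 genotype and batch was 0.24, against 0.58 for Cidec, the next narrowest, and 1.02 for Plin4, the widest. Of 10 cre mice, 5 lay above the median of the 8 wt mice, and the groups overlapped throughout.

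Of the droplet proteins, Plin1 ran from 12.49 through 15.41 to 16.03 in wt and from 14.79 through 15.38 to 15.72 in cre. Plin4 ran from 12.86 through 15.99 to 16.60 in wt and from 15.41 through 16.06 to 16.64 in cre. For both genes the medians of the genotypes were close. Cidec ran from 15.78 through 17.76 to 18.26 in wt and from 17.34 through 17.95 to 18.64 in cre, and 9 of 10 cre mice lay above the median of the 8 wt mice. Among those 8 wt mice Cidec spanned only 17.73 to 18.26.

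G0s2, the Pnpla2 inhibitor, ran from 8.30 through 10.36 to 11.14 in wt, with replicates 5 and 6 at 8.97 and 8.30. In cre it ran from 9.71 through 11.15 to 11.81, with cre replicate 4 lowest at 9.71 and cre replicates 1 and 7 highest at 11.70 and 11.81. Of the 10 cre mice, 6 lay above every wt mouse, 9 lay above the median of the 8 wt mice, and 1 lay below all 8. Among those 6, cre replicates 2, 3 and 5, at 11.141, 11.161 and 11.172, were close to the highest wt value of 11.140. The means were 10.23 ± 0.91 in wt, or 10.62 ± 0.38 (n = 8) without replicates 5 and 6, and 11.04 ± 0.62 in cre.

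Aqp7, the glycerol channel, ran from 13.55 through 15.47 to 16.64 in wt and from 14.58 through 15.54 to 16.31 in cre, and both groups were spread widely. Pde3b ran from 12.72 through 14.72 to 15.17 in wt and from 13.99 through 14.57 to 15.67 in cre. Its 2 highest values, 15.67 and 15.62, were those of cre replicates 7 and 9, the mice with the 2 lowest macrophage marker means, 11.1 and 10.6. Adipoq was also high in cre replicates 7 and 9, at 19.57, the highest of all mice, and 19.44. Whether the macrophage or the fat-cell share bears on these Pde3b values was not tested in single mice.

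No member differed between the genotypes after adjustment. All 10 means were higher in cre, as were those of 50.7% of all probe sets; the members' median difference was 0.30 (0.003 over all probe sets). The smallest adjusted p was 0.770 (limma, Benjamini-Hochberg over all probe sets), and Tnf alone, 0.00450% of probe sets, passed. G0s2 was higher in cre by 0.82 (SE 0.31, 95% interval 0.17 to 1.46), a 1.76-fold difference, at an unadjusted p of 0.0156 in limma. It was the 1 member under an unadjusted 0.05, where 6.29% of all probe sets lay. It was also the 1 member in the study's own selection, an unadjusted p under 0.05 with a fold of at least 1.5, which held 1.04% of probe sets. The other 9 differences ran from 0.07 for Pnpla2, Abhd5 and Aqp7 through 0.10 for Mgll, 0.24 for Lipe, 0.35 for Plin1, 0.36 for Pde3b and 0.40 for Plin4 to 0.42 for Cidec, each with an interval that included 0. The interval for Pnpla2, -0.64 to 0.78, leaves room for a change in either direction, whereas that for Abhd5 was narrower, -0.19 to 0.33. Adipoq itself was higher in cre by 0.40 (95% interval -0.10 to 0.89).

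Without wt replicates 5 and 6 the sign turned for 8 of the 10 genes. Leaving out a pair picked for its low values in these genes raises the wt means, so the direction of this shift was fixed in advance. The median difference was then -0.15, and only G0s2, at 0.42 (95% interval -0.03 to 0.87), and Cidec, at 0.10, were higher in cre, beside 50.5% of all probe sets. Pnpla2 was at -0.36, Mgll and Aqp7 at -0.32, Lipe at -0.23, Plin4 at -0.17, Plin1 at -0.13, Pde3b at -0.03 and Abhd5 at -0.01. No member lay under an unadjusted 0.05 in this fit, against 5.27% of probe sets, and none passed adjustment (smallest adjusted p 0.920, limma; 0.00450% of probe sets did). The Adipoq difference shrank to 0.08. Leaving out instead the 6 mice with markers of another tissue, which kept 7 mice of each genotype, gave 0.71 for G0s2 (95% interval -0.01 to 1.44) and 0.34 for Cidec, with Abhd5 at -0.05 and the other members higher in cre.

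With the Adipoq signal of each array as a covariate, 7 of the 10 members were lower in cre and 3 were higher, with a median of -0.20, beside 49.5% of all probe sets that were higher. None passed adjustment (smallest adjusted p 0.949, limma), as against 0.00450% of probe sets. Aqp7 stood at -0.50 (95% interval -0.89 to -0.12, unadjusted p = 0.0121 in limma), and Pnpla2 was at -0.45 (-0.84 to -0.06, unadjusted p = 0.0255). These were the 2 members under an unadjusted 0.05, where 5.24% of all probe sets lay. Mgll stood at -0.39, Lipe at -0.29, Plin4 at -0.24, Plin1 at -0.15 and Pde3b at -0.14. G0s2 remained higher at 0.39 (-0.05 to 0.83), with Cidec at 0.09 and Abhd5 at 0.02. Values were close to these without wt replicates 5 and 6: Aqp7 was at -0.48, Pnpla2 at -0.45, Mgll at -0.40 and G0s2 at 0.37. Mgll was then also under an unadjusted 0.05, which made 3 members, beside 5.98% of all probe sets. With the 6 mice with markers of another tissue left out, Aqp7 was at -0.29 (limma's unadjusted p = 0.221) and Pnpla2 at -0.33 (0.185), and neither was under 0.05. Pnpla2 also missed it without wt replicate 3 (-0.38), 4 (-0.39) or 7 (-0.41) and after a repeated quantile normalization (-0.40). With the mean of all fat-cell markers as the covariate in place of Adipoq, neither Aqp7, at -0.34 (95% interval -0.74 to 0.07), nor Pnpla2, at -0.32 (-0.65 to 0.01), was under 0.05. G0s2, at 0.51 (0.08 to 0.94), was the 1 member under 0.05 in that fit, beside 5.65% of all probe sets. With the macrophage marker mean as the covariate, Aqp7 was at -0.17 and Pnpla2 at -0.13.

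**Figure D2:**
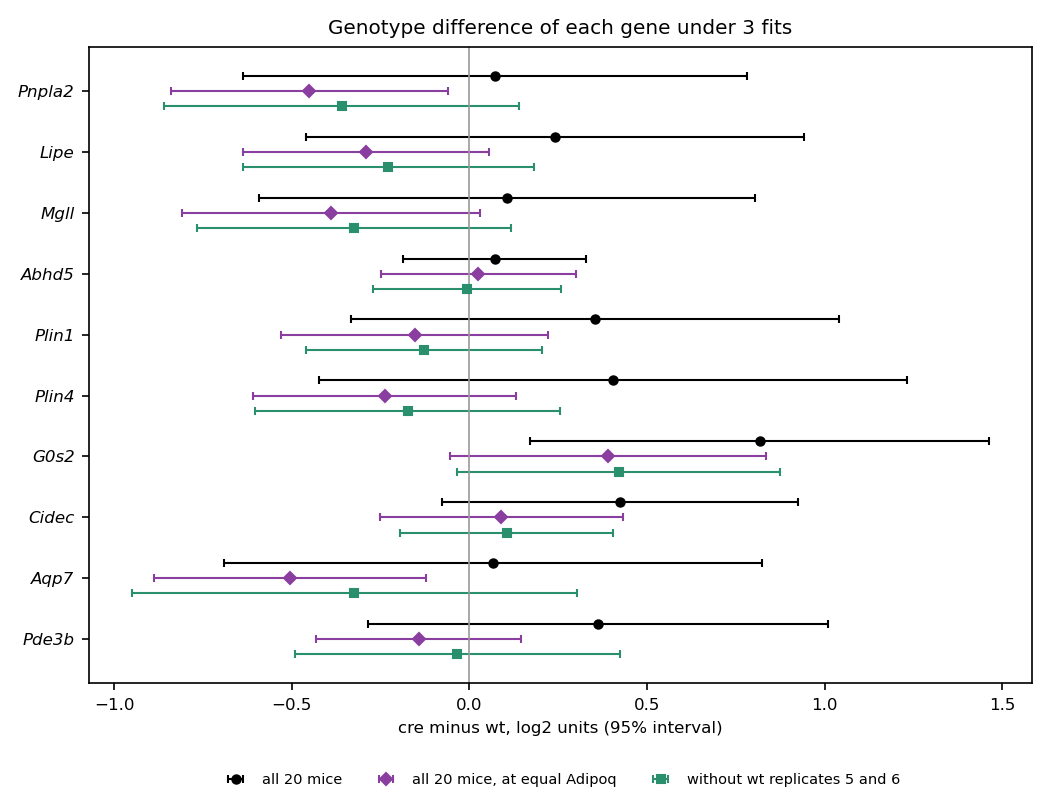
Difference between the genotypes (cre minus wt, log2 units, horizontal axis) with its 95% interval for each gene, over all 20 mice (black), over all mice at equal Adipoq (purple) and without wt replicates 5 and 6 (green). All 10 black points lie above 0, while G0s2 and Cidec lie above 0 in all 3 fits and Pnpla2 moves from 0.07 to -0.45 and -0.36.

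The 2 batches gave partly different pictures. In batch 1, 7 members were higher and 3 lower in cre, with a median of 0.11; in batch 2 all 10 were higher, with a median of 0.40. Among all probe sets 49.8% and 52.9% were higher. G0s2 differed by 0.88 (95% interval 0.08 to 1.67) in batch 1, with means of 10.42 ± 0.86 (wt, SD, n = 5) and 11.29 ± 0.47 (cre, SD, n = 5). In batch 2 it differed by 0.76 (-0.22 to 1.73), with means of 10.04 ± 1.02 and 10.79 ± 0.69 (SD, n = 5). Pde3b had 0.68 in batch 1 against 0.05 in batch 2, whereas Cidec had 0.18 against 0.67. Pnpla2 was at -0.12 in batch 1 and 0.26 in batch 2, and Mgll at -0.17 and 0.38. The difference between batches itself passed adjustment for no member (limma's genotype-by-batch term, smallest adjusted p 0.846) and for 0.00% of probe sets. No member lay under an unadjusted 0.05 for it, where 7.41% of probe sets did. Wt replicate 5 belongs to batch 1 and replicate 6 to batch 2. At equal Adipoq, Pnpla2 was at -0.69, Mgll at -0.63, Aqp7 at -0.61 and Lipe at -0.54 in batch 1, each with an interval below 0 and an unadjusted p under 0.05, as for 7.35% of probe sets. In batch 2 they were at -0.21, -0.12, -0.40 and -0.04, each with an interval that included 0.

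Mouse by mouse, most members moved with Adipoq. Within genotype and batch, 9 of the 10 members rose with Adipoq after adjustment, where 6.09% of all probe sets changed with it and 3.83% rose. The slopes, in log2 units per log2 unit of Adipoq, were 1.63 (SE 0.16) for Plin4, 1.44 for Aqp7, 1.35 for Lipe, 1.32 for Pnpla2, 1.28 for Plin1, 1.27 for Pde3b, 1.25 for Mgll, 1.08 for G0s2 and 0.84 (SE 0.15) for Cidec. Their adjusted p-values lay between 3.51e-06 and 0.000965 (limma). Abhd5 had a slope of 0.12 (95% interval -0.13 to 0.36, limma's adjusted p = 0.675). Adjusting for Adipoq left 8.83% of the variance of Pde3b, 11.4% of that of Plin4 and 13.1% of that of Lipe, but 36.0% of that of G0s2 and 91.1% of that of Abhd5. Adipoq itself ran only from 17.38 to 19.57 and lay close to the highest signals of the arrays.

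**Figure D3:**
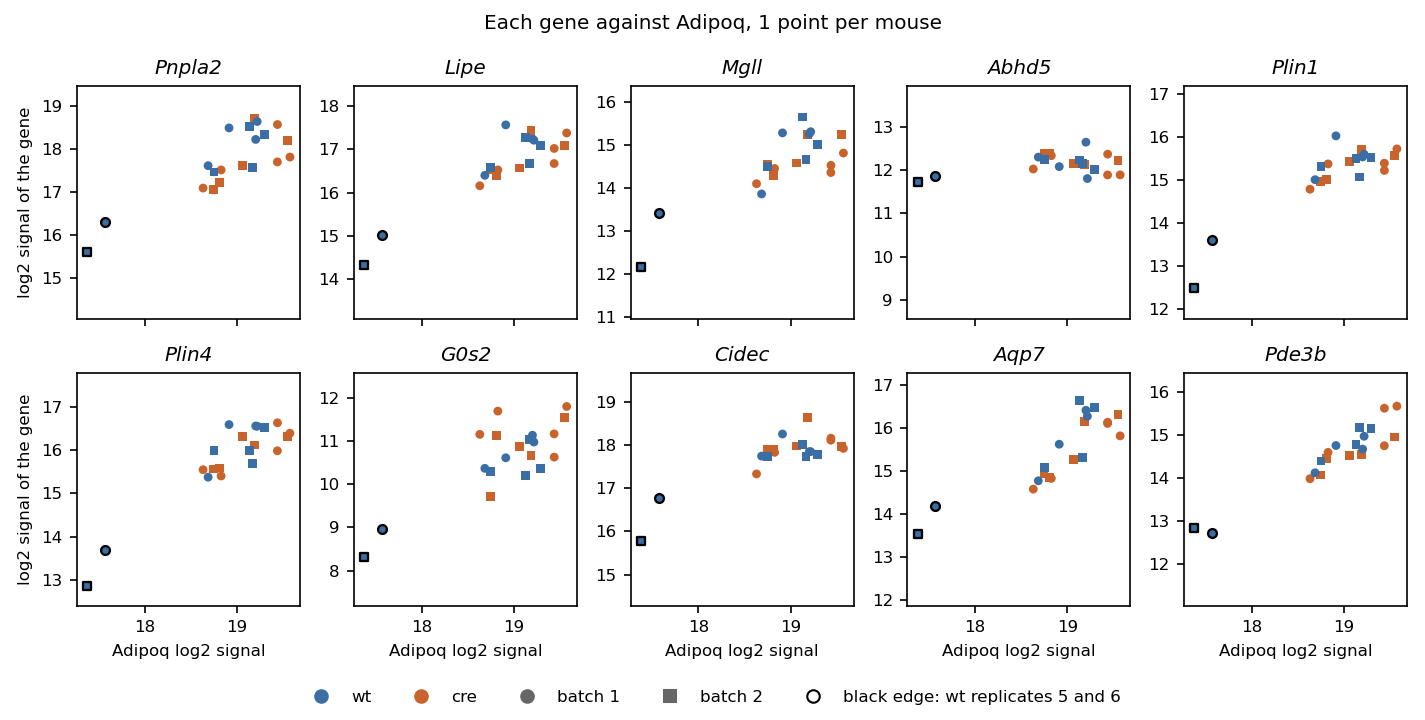
Log2 signal of each gene (vertical axis, same span in every panel) against the Adipoq log2 signal of the same array (horizontal axis), 1 point per mouse, wt blue and cre orange, circles for batch 1 and squares for batch 2. Wt replicates 5 and 6 (black edges) sit at the low end of Adipoq, 17.57 and 17.38, apart from the other 18 mice, and Abhd5 is nearly level.

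Much of this relation rested on wt replicates 5 and 6, the pair farthest from the median of Adipoq. Without them 4 of the 10 members still rose with Adipoq after adjustment, against 1.54% of probe sets. They were Aqp7 with a slope of 1.94 (limma's adjusted p = 0.00146), Pde3b with 1.34 (0.00523), Plin4 with 1.05 (0.0337) and Pnpla2 with 1.17 (0.0489). Lipe had a slope of 0.94 (limma's adjusted p = 0.0560), Mgll 0.89, G0s2 0.60, Plin1 0.59 and Cidec 0.35, and Abhd5 was at -0.22. Over these 18 mice Adipoq left 23.2% of the variance of Aqp7 and 25.2% of that of Pde3b, but 76.9% of that of Cidec and 85.8% of that of G0s2. Across this narrower range of Adipoq, the values of Cidec and G0s2 varied largely apart from it.

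Slopes on the macrophage markers had the opposite sign. All 10 slopes on the macrophage marker mean were negative, while 44.1% of all probe sets had a slope above 0, and 2 passed adjustment, where 10.5% of probe sets did and 3.43% fell: Pde3b at -0.62 (limma's adjusted p = 0.0326) and Aqp7 at -0.69 (0.0493). Without wt replicates 5 and 6, 6 members fell, against 3.22% of probe sets: Aqp7 by 0.70, Pnpla2 by 0.55, Pde3b by 0.54, Plin4 by 0.48, Lipe by 0.47 and Mgll by 0.46 per log2 unit of the macrophage mean, with adjusted p-values from 0.00398 to 0.0211 (limma). G0s2 was at -0.05 and Abhd5 at 0.00 there. A fit with both Adipoq and the macrophage mean used all mice, wt replicates 5 and 6 included. None of the members' macrophage slopes passed adjustment in it (smallest adjusted p 0.267, limma), beside 7.57% of probe sets. Of their Adipoq slopes in that fit, 9 passed, beside 4.93% of probe sets. None of those macrophage slopes lay under an unadjusted 0.05 either, where 20.8% of probe sets did. The joint fit was not run without the pair. Whether the macrophage slopes of the 6 members found without it hold at equal Adipoq was therefore not tested. The macrophage mean ran from 11.9 to 13.6 in wt and from 10.6 to 12.9 in cre.

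**Figure D4:**
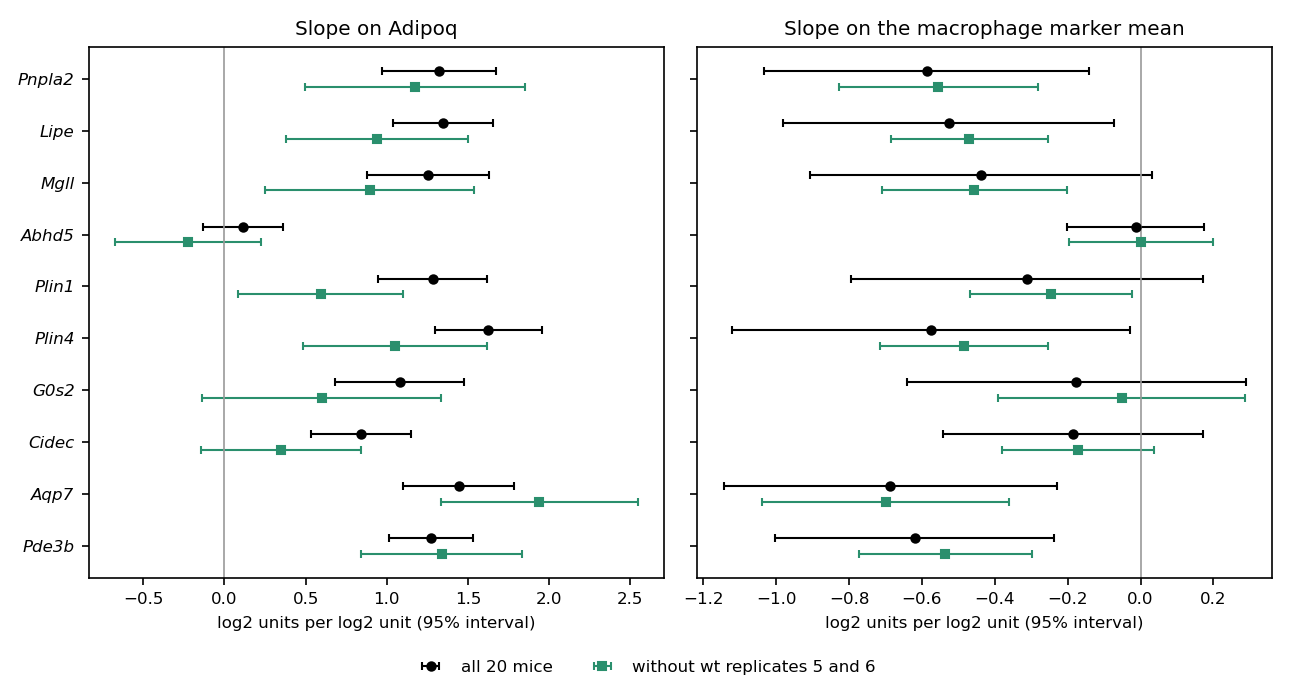
Change of each gene (log2 units, with 95% interval) per log2 unit of Adipoq (left) and per log2 unit of the macrophage marker mean (right), within genotype and batch, over all 20 mice (black) and without wt replicates 5 and 6 (green). Abhd5 lies near 0 in both panels; without the pair, G0s2 moves from 1.08 to 0.60 on Adipoq and lies at -0.05 on the macrophage mean.

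The opposed proteins of the pathway were also compared within each array, which shows unequal change of the 2 genes but not which of them moved. The log2 signal of Pnpla2 minus that of its inhibitor G0s2 averaged 7.44 ± 0.51 (SD) over the 10 wt mice and 6.70 ± 0.82 (SD) over the 10 cre mice. Only the difference between mice can be read from these values, because each probe set has its own scale. Wt ran from 6.54 to 8.31, and 5 cre mice, replicates 1, 2, 3, 5 and 7 (5.80, 6.07, 5.92, 6.52 and 6.00), lay below all wt mice. Cre replicates 6 and 9, at 8.02 and 7.93, lay in the upper part of the wt range. The genotype difference was -0.75 (95% interval -1.39 to -0.10), -0.99 in batch 1 and -0.50 (-1.55 to 0.56) in batch 2. It changed little without wt replicates 5 and 6, at -0.78 (-1.51 to -0.05), and this pair, at 7.32 and 7.28, lay near the wt mean. The interval reached 0 when wt replicate 4, cre replicate 1 or cre replicate 2 was left out, with values of -0.66, and with the 6 mice with other tissue left out (-0.66, 95% interval -1.39 to 0.08). No p is given for this contrast, whose genes were picked with earlier results known.

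**Figure D5:**
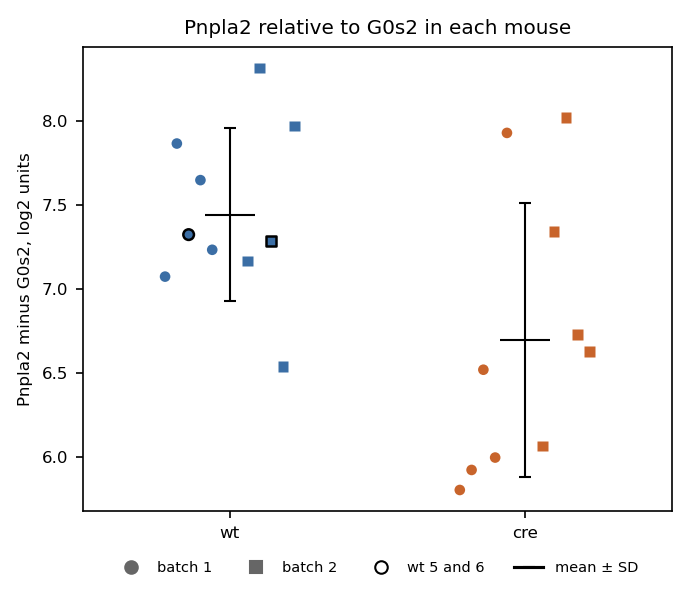
Pnpla2 minus G0s2 (log2 units, vertical axis) in each wt and cre mouse, circles for batch 1, squares for batch 2, black edges for wt replicates 5 and 6, and bars for mean ± SD of 10 mice. The 5 lowest cre mice lie below the lowest wt mouse at 6.54, and cre replicates 6 and 9 lie at 8.02 and 7.93.

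The other contrasts had intervals that included 0. Over all 20 mice, the interval for Abhd5 with Plin1 also included -0.75, the difference for Pnpla2 minus G0s2. The contrast of Abhd5 with Plin1, the activator against the coat protein that holds it, differed by -0.28 (95% interval -1.003 to 0.44) between the genotypes and by 0.12 (-0.33 to 0.58) without wt replicates 5 and 6. That of Lipe with Plin1 differed by -0.11 (-0.31 to 0.09), or -0.10 without them, and its SD among the wt mice, the low pair included, was only 0.17.

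Among themselves the members shared most of their variation. Over the 20 mice, with the mean of genotype and batch removed, all 45 pairs had a positive Pearson correlation, with a median of 0.85 and a range from 0.21 to 0.97. Lipe and Plin1 were the most alike pair (0.97), followed by Lipe and Mgll (0.96), and Pnpla2 was most like Lipe (0.95) and Aqp7 (0.92). Plin1 was also most like Plin4 after Lipe (0.95), and Cidec was most like Plin1 (0.95). Abhd5 was the least alike for each of the other 9. Without wt replicates 5 and 6 the median was 0.59 and 35 of the 45 pairs were positive. Lipe and Mgll then led with 0.89, Pnpla2 and Aqp7 had 0.86, and G0s2 was most like Pde3b with only 0.36. The correlation of G0s2 with the mean profile of the 10 genes went from 0.80 to 0.30, and that of Abhd5 from 0.44 to -0.14. These are descriptions over mice whose samples also differed in their fat-cell markers. The 5 other genes closest to the mean profile over 20 mice were Pfkfb3 (0.97), Cavin2 (0.97), Tns1 (0.97), Mcam (0.96) and Gcsh (0.96); over 18 mice they were Fgfrl1, Pgm1, Gnai1, Adhfe1 and Rtl8a (0.93 to 0.94), a list with no gene in common.

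The rest of the pathway was read from 3 lists. Of 28 measured lipid droplet and lipolysis proteins other than the members, 20 were higher and 8 lower in cre, with a median of 0.17, and none passed adjustment (smallest adjusted p 0.770, limma). Over all probe sets 50.7% were higher and 6.29% lay under an unadjusted 0.05. At an unadjusted p under 0.05, 3 were higher and 1 lower: Faf2 at 0.32, an adaptor that removes droplet proteins for degradation; Cav1 at 0.47, the caveolar protein caveolin 1; Ddhd2 at 0.33, a triglyceride hydrolase; and Aup1 at -0.31, a droplet protein that takes part in ubiquitin transfer. Without wt replicates 5 and 6, 13 were higher and 15 lower, with a median of -0.01, and 2 lay under an unadjusted 0.05, against 5.27% of probe sets. These were Faf2 at 0.28 and Plin5, a droplet coat protein of oxidative tissues that was picked after its values were seen, at -0.36, whereas Cav1 was at 0.23, Ddhd2 at 0.18 and Aup1 at -0.22. Of 23 measured genes of hormonal control, 15 were higher and 8 lower, with a median of 0.15, and Npr3, the natriuretic peptide clearance receptor, was the 1 gene under an unadjusted 0.05, higher at 0.63. Npr3 was at 0.26 without wt replicates 5 and 6 and at 0.20 at equal Adipoq, above 0.05 in both. Without the pair, 12 of the 23 were higher, with a median of 0.01, and 1 other gene, Hcar1, lay under 0.05. Of 7 glycerol and water handling genes, 6 were higher and 1 lower, with a median of 0.40 and none under an unadjusted 0.05; without the pair 5 were higher, with a median of 0.13. No gene of these lists passed adjustment between the genotypes over all mice, at equal Adipoq or without the pair.

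Members of all 3 lists also moved with Adipoq: 9 of 28 droplet proteins, 9 of 23 hormonal control genes and 3 of 7 glycerol and water handling genes rose with it after adjustment, against 3.83% of all probe sets. The counts were 2, 6 and 0 without wt replicates 5 and 6, against 1.54%. Prkacb, a catalytic subunit of protein kinase A, was the 1 gene of the lists that fell, with a slope of -0.84 (limma's adjusted p = 0.000407). Hcar1, the lactate receptor that restrains lipolysis, was picked after its values were seen: its difference was -0.31 over all mice, -0.82 without wt replicates 5 and 6 (limma's adjusted p = 0.920) and -1.01 at equal Adipoq (limma's adjusted p = 0.343). Its slope on Adipoq was 1.76, steeper than that of any of the 10 members. Ces1d, at 2.00, and Ces1f, at 1.89, both on the list of droplet and lipolysis proteins, were steeper still.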

How the data were processed

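RNA from the fat pads was amplified and labelled with biotin (GeneChip WT PLUS kit, per the labels' protocols) and read on 1 array per mouse. Values are log2 signals of probe sets as deposited; RMA, Transcriptome Analysis Console 4.0.2.15 and mm10 are named per the submitters' processing notes. RMA usually aligns the arrays, which would hide a shift of most genes at once. Whether background or batch was adjusted is not given in the sources used here, and the number of arrays limits the precision. A symbol was given to 19572 of 22206 probe sets, none had several, and 2634 stay unnamed here; the probe set of highest mean stood for its gene.

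Genotype, with batch as a second term, was fitted in limma 3.58.1 (R 4.3.3; lmFit, eBayes) to every probe set, and p-values were adjusted by Benjamini-Hochberg at 0.05. Adipoq's own probe set left the fit that used it as a covariate (22205 remained). Both fits were tested on simulated data made from these arrays. Contrasts within arrays used a linear model with the same terms. The labels call the replicates biological, and each was a mouse.

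All members, Adipoq and Tnf were named, with listed pathway genes under an unadjusted p of 0.05 and the 5 genes most like the members. Members, lists and rules were chosen with earlier results of these data known. Of 67 pathway genes listed, 58 were measured. Promoters came from RefSeq (GRCm38.p6), with windows for 9 of the 10 members. Alternatives were other covariates, single batches, array weights, repeated quantile normalization, dim probe sets left out and mice left out. Those for the contrasts, the joint covariates, and the macrophage slopes and pathway lists without the low pair were chosen after seeing the data.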

Additional observations from a re-analysis of the deposited data

How the results depend on the processing

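No member passed adjustment between the genotypes in any of the 12 alternatives or the 20 fits that left out 1 mouse, with or without Adipoq (14 alternatives). The limits are the 20 arrays, the pair of low wt mice and the unknown meaning of the batches. Where a sign turned, the cause was not tested. Without wt replicates 5 and 6 the differences were -0.36 (Pnpla2), -0.23 (Lipe), -0.32 (Mgll), -0.0061 (Abhd5), -0.13 (Plin1), -0.17 (Plin4), -0.32 (Aqp7) and -0.034 (Pde3b), the Abhd5 slope on Adipoq was -0.22, 4 slopes passed in place of 9, 0 members met the study's selection in place of 1, and 2 of the listed droplet proteins lay under an unadjusted 0.05 in place of 4. The number of members in the study's selection was also 0 in batch 2 alone and with the other-tissue mice left out. Of all probe sets, 0.757% met it without wt replicates 5 and 6, 2.56% in batch 2 alone and 2.26% without the other-tissue mice. With the other-tissue mice left out, Abhd5 was at -0.051, and at -0.064 at equal Adipoq. In batch 1 alone Pnpla2 was at -0.12, Mgll at -0.17 and Abhd5 at -0.040; at equal Adipoq there, Abhd5 was at -0.087, Cidec at -0.15 and Pde3b at 0.045, and 3 members met the selection in place of 0. In batch 2 at equal Adipoq, Plin1 was at 0.075 and Plin4 at 0.023. With array weights Pnpla2 was at -0.23, Lipe at -0.052, Mgll at -0.15 and Aqp7 at -0.21. With the macrophage mean in place of Adipoq, Lipe was at 0.057, Plin1 at 0.24, Plin4 at 0.20 and Pde3b at 0.14, and 1 member met the selection; with the fat-cell marker mean, Pde3b was at 0.0074. With 1 mouse left out, the differences ran from -0.16 to 0.18 for Pnpla2, -0.014 to 0.36 for Lipe, -0.17 to 0.24 for Mgll and -0.15 to 0.21 for Aqp7, and from -0.031 to 0.11 for Abhd5 at equal Adipoq. The count in the selection at equal Adipoq ran from 0 to 1, with 1 only without wt replicate 8. For the selection counts at equal Adipoq or with the macrophage mean, no share of all probe sets was worked out. Those counts are therefore not read as a result about the members. Without a covariate, 4.26% of all probe sets met the selection in batch 1 alone, against 1.04% over all 20 mice. G0s2 stayed above 0 in all of these fits, from 0.42 to 0.95, and from 0.24 to 0.76 at equal Adipoq or another covariate. The contrast of Pnpla2 with G0s2 ran from -0.99 to -0.50 in its own alternatives. With the other-tissue mice left out, it was -1.27 within batch 1 and -0.045 within batch 2. Whether the replicate numbers shared by wt and cre mice pair them is not settled here. The correlation of same-numbered mice ran from -0.30 to 0.34, and 4 of 10 were over 0.1. These values cannot decide it, because no correlations of differently numbered mice were set beside them. With the replicate block in place of batch, 0 members passed adjustment and the median difference was 0.30, or -0.21 at equal Adipoq. Limma's unadjusted p-values moved in both directions: G0s2 was at 0.0061 against 0.0156 with batch, and Cidec at 0.15 against 0.094. At equal Adipoq, G0s2 was at 0.027 against 0.082, and so under 0.05 with the block only, and Pnpla2 was at 0.028 against 0.0255.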
